A study of Mus musculus with 15 samples.

Results

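Transcripts of the IL-4 and IL-13 receptor chains Il4ra, Il13ra1 and Il13ra2 and of the transcription factor gene Stat6 were followed across 5 culture conditions of primary mouse lung fibroblasts. The 4 genes were taken by name from the 18078 genes of the expression files, and all 4 passed the filter for testing, which 13887 genes passed. The cells came from wild-type mice of the BALB/cJ strain and were cultured for 20 h without cytokine or with recombinant IL-33, IL-33/17A, IL-33/13 or IL-33/13/17A, with 3 libraries in each group. The last mixture is called the triple combination here, and the others keep their label names. Every cytokine group thus contained IL-33, and neither IL-13 nor IL-17A was given alone. The labels name neither animals nor culture dates. Every p-value thus rests on the spread within groups of 3 libraries, pooled over all 5 groups in the main fit. That spread may be technical.

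IL-4 and IL-13 share the signalling chain IL-4Ralpha, encoded by Il4ra. Paired with IL-13Ralpha1 it forms the type II receptor, the main form on fibroblasts and other non-haematopoietic cells, which responds to both cytokines, activates JAK kinases and phosphorylates STAT6. IL-13Ralpha2 binds IL-13 with high affinity, has a short cytoplasmic tail and is known mainly as a decoy that takes IL-13 away from the signalling receptor, and its gene is a known target of IL-13 in fibroblasts.

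Il13ra2 was the gene of the 4 that changed most, and its start region is shown beside that of Il13ra1, the gene of the signalling chain for the same ligand. The windows are the 250 bases before the RefSeq start (GRCm38.p6), 5′ to 3′ on the gene's strand, at chrX:147429193-147429442 on the minus strand for Il13ra2 and at chrX:36111858-36112107 on the plus strand for Il13ra1. Capitals mark matches to a TATA box (TATAAA) or an AP-1 site (TGANTCA) in Il13ra2, and to a GC box (GGGCGG) or an NF-kB site (GGGNNNNNCC) in Il13ra1.
Il13ra2: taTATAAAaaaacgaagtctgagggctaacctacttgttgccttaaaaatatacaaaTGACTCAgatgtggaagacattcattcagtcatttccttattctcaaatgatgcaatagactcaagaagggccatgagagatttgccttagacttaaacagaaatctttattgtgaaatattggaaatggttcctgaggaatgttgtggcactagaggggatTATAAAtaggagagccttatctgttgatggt
Il13ra1: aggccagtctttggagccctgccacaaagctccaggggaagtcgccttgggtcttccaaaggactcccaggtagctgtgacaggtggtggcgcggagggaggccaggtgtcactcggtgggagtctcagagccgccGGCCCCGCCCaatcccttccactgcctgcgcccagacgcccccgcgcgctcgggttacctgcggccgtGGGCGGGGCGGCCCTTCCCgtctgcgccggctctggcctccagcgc
The Il13ra2 window held a TATA box starting 31 bases before the start, another at 248 bases, and an AP-1 match at 193 bases. The Il13ra1 window held 3 GC box matches, at 110, 46 and 41 bases before the start, and 3 NF-kB matches that overlap them, at 114, 42 and 37 bases. Among 32536 mouse windows of the same length, 12.3% held the TATA letters, 6.73% the AP-1 letters, 33.0% the GC box and 46.0% the NF-kB letters on either strand. The STAT6 spacing TTCNNNNGAA, found in 5.89% of all windows, and the STAT spacing TTCNNNGAA, found in 7.04%, were in neither of these windows nor in those of Il4ra and Stat6. The motifs were chosen after the windows had been seen, and a match is a description of letters, not of binding.

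Some facts of the whole series touch every value below. Levels are in TPM, reads divided by gene length and scaled to a fixed total per library. The length given in the files is the gene's span from start to end, introns included, so TPM can be compared between libraries but not between genes. Multiplied by span, 87.8% to 89.6% of each library's values below 1000 reads were whole reads within 0.03, which gave library totals of 10554603 to 15123279 reads. In 6 libraries 13 mitochondrial genes summed to 3.50% to 3.87% of all TPM, and in the other 9 libraries 4.77% to 6.13%. These 6 were the 3 IL-33/13 libraries, IL-33/17A replicates 2 and 3, and triple replicate 1. The study does not define this set. No untreated or IL-33 library belongs to it, so a term for it in the fit rests on the other 2 groups with libraries of both kinds. Of 10 fibroblast markers 9 averaged 10 TPM or more (Col1a1 highest, 4658 TPM). So did 13 of the 14 macrophage markers (Lyz2 highest, 9363 TPM), and Il4ra, Il13ra1 and Stat6 are known to be expressed in macrophages too. Marker levels and the marker sums below depend on gene span, so they do not give the shares of fibroblasts and macrophages. The source of the receptor transcripts among these cells, and fewer cells of a type against less RNA per cell, cannot be told apart in bulk RNA.

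The decoy receptor gene Il13ra2 (ENSMUSG00000031289, mm10 chromosome X, 147383476 to 147429192, minus strand) was nearly silent in untreated cells and was highest where all 3 cytokines were present. In the untreated libraries it stood at 0.152, 0.149 and 0.163 TPM, which are 7, 6 and 7 reads. With IL-33 alone it reached 2.63, 2.76 and 3.34 TPM (117, 120 and 151 reads). With IL-33/17A the 3 libraries had 7.11, 6.40 and 5.78 TPM. Each library of each of these groups was thus above all libraries of the group before it. With IL-33/13 the values were 22.4, 21.1 and 23.2 TPM, and in the triple combination 29.8, 36.1 and 37.6 TPM. No 2 of the 5 groups overlapped, and the order of the means was untreated, IL-33, IL-33/17A, IL-33/13, triple combination.

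**Figure D1:**
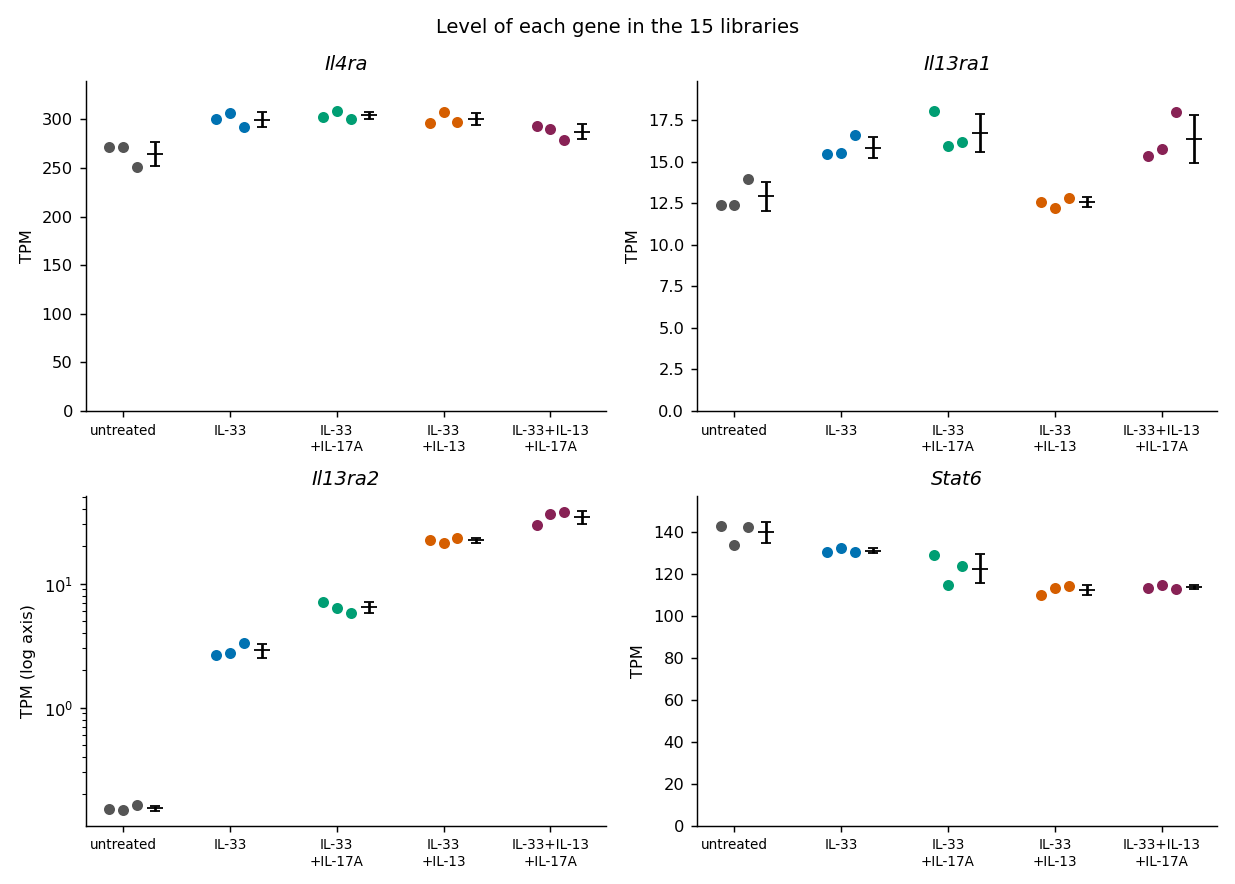
TPM of Il4ra, Il13ra1, Il13ra2 and Stat6 (vertical axes, logarithmic for Il13ra2 and from 0 for the others) in the 5 culture conditions; points are single libraries and the bar beside them is the mean with its SD (n = 3). Il13ra2 rises from 0.155 TPM untreated to 34.5 TPM in the triple combination, while the group means of the other 3 genes stay within 1.33-fold of each other.

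Group means of Il13ra2 were 0.155 ± 0.00728 TPM untreated, 2.91 ± 0.377 with IL-33, 6.43 ± 0.664 with IL-33/17A, 22.2 ± 1.06 with IL-33/13 and 34.5 ± 4.16 in the triple combination (SD, n = 3). In that order limma called the later group higher in all 10 pairs of groups, which share libraries with each other. IL-33 alone raised it by 1.75 ± 0.09 on the log2(TPM + 1) scale (SE, limma adjusted p = 6.0e-08), and the triple combination raised it by 4.94 ± 0.09 (adjusted p = 5.8e-13). IL-33/17A gave 2.68 (adjusted p = 3.8e-10) and IL-33/13 gave 4.33 (adjusted p = 3.5e-12). The added 1 TPM is far above the untreated level, so these log2 values understate the change. After division by library totals, the ratio of reads to untreated was 19.5 for IL-33 (95% interval 12.5 to 32.3), from 388 against 20 reads. The ratio was 44.5 for IL-33/17A (28.7 to 73.2), 158 for IL-33/13 (102 to 259) and 243 for the triple combination (157 to 399). These exact intervals cover counting error only, and their width comes from the 20 untreated reads. The gene passed the filter of 1 TPM in 3 libraries only through the treated groups.

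IL-13 added the larger step and IL-17A the smaller one. On top of IL-33, IL-13 raised Il13ra2 by 2.58 ± 0.09 (limma adjusted p = 2.8e-09), a read ratio of 8.10 (7.29 to 9.02). On top of IL-33, IL-17A raised it by 0.93 ± 0.09 (limma adjusted p = 4.8e-05), a read ratio of 2.28 (2.02 to 2.57). Compared directly, IL-33/13 was above IL-33/17A by 1.65 (limma adjusted p = 2.0e-07). Both steps were seen again in the presence of the other cytokine. IL-13 added to IL-33/17A gave 2.25 (limma adjusted p = 1.7e-08) and a read ratio of 5.47 (5.11 to 5.86). IL-17A added to IL-33/13 gave 0.60 (limma adjusted p = 0.0020) and a read ratio of 1.54 (1.47 to 1.61). The direction of Il13ra2 and its call in all 10 pairs were unchanged in every alternative that was run, 156 values in all, with the term for the low mitochondrial libraries among them.

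Whether the 2 cytokines acted more or less than additively on Il13ra2 depended on the scale. In TPM, IL-17A added 3.52 without IL-13 and 12.2 with it, a difference of 8.73 TPM that was not tested. On the log2 scale the interaction pointed the other way, -0.32 ± 0.13, and did not pass (limma adjusted p = 0.15). On recovered reads with limma voom, an alternative chosen after seeing the data, it was -0.57 and passed (adjusted p = 0.020), and with a term for the low mitochondrial set it was -0.65 and did not (adjusted p = 0.38). The read ratio for IL-17A was 2.28 without IL-13 and 1.54 with it.

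Il13ra1, the IL-13-binding chain of the signalling receptor (ENSMUSG00000017057, mm10 chromosome X, 36112110 to 36171259, plus strand), changed by far less and not in the same order. The untreated libraries had 12.4, 12.4 and 13.9 TPM, and those with IL-33 alone 15.4, 15.5 and 16.6. With IL-33/17A the values were 18.0, 16.0 and 16.2 TPM. With IL-33/13 they were 12.6, 12.2 and 12.8 TPM, around the untreated values and below every other treated library. In the triple combination they were 15.3, 15.7 and 18.0 TPM, close to the values with IL-33 but no IL-13. The groups fell into a low pair (untreated 12.9 ± 0.893 TPM, IL-33/13 12.5 ± 0.298) and a high trio (IL-33 15.8 ± 0.644, triple combination 16.4 ± 1.42, IL-33/17A 16.7 ± 1.15). The libraries of a group overlapped its neighbours within the pair and within the trio but not between them.

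Against untreated cells, Il13ra1 rose by 0.28 ± 0.07 with IL-33 (limma adjusted p = 0.015), by 0.35 ± 0.07 with IL-33/17A (0.0016) and by 0.32 ± 0.07 with the triple combination (0.0023). The first of these calls was lost without replicate 3 of IL-33 (adjusted p = 0.056), untreated replicate 1 (0.062) or untreated replicate 2 (0.064). With IL-33/13 the difference from untreated was -0.04 ± 0.07 (limma adjusted p = 0.68), with a 95% interval from -0.18 to 0.11, and it turned to 0.10 when libraries were rescaled by median ratios. Il13ra1 fell when IL-13 was added to IL-33, with a change of -0.31 ± 0.07 (limma adjusted p = 0.0048), while Il13ra2 rose in the same libraries. IL-17A added to IL-33/13 raised it by 0.35 ± 0.07 (adjusted p = 0.0076), whereas IL-17A added to IL-33 alone gave 0.07 ± 0.07 (adjusted p = 0.53). The difference between these IL-17A effects, 0.28 ± 0.10, did not pass (limma adjusted p = 0.11), and passed without replicate 1 of IL-33/17A (0.029) or of the triple combination (0.046). The libraries with IL-33/13 all belong to the low mitochondrial set, and with a term for that set the fall with IL-13 was -0.17 (adjusted p = 0.24) and the rise with IL-17A 0.26 (adjusted p = 0.065). The difference between the IL-17A effects was then 0.09 (adjusted p = 0.9988).

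Il4ra, the signalling chain shared by both cytokines (ENSMUSG00000030748, mm10 chromosome 7, 125552120 to 125579474, plus strand), was higher in every cytokine group than in untreated cells, by a narrow margin. The untreated libraries had 271.3, 271.2 and 250.6 TPM. The 12 treated libraries lay between 278.7 and 308.7 TPM, all above the untreated ones. The lowest treated group was the triple combination, with 293.5, 290.6 and 278.7 TPM. The 4 treated group means ran from 287.6 ± 7.84 to 304 ± 4.05 TPM, and the libraries of the triple combination overlapped those of IL-33 alone but neither of the other treated groups.

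Il4ra rose by 0.18 ± 0.04 with IL-33 (limma adjusted p = 0.0049), by 0.20 with IL-33/17A (0.0010), by 0.18 with IL-33/13 (0.0014) and by 0.12 with the triple combination (0.018). Neither IL-13 nor IL-17A moved it past the threshold on top of IL-33. IL-13 added to IL-33 gave 0.0030 ± 0.04 (limma adjusted p = 0.96) with an interval from -0.08 to 0.08, and IL-17A added to IL-33 gave 0.02 ± 0.04 (adjusted p = 0.75) with an interval from -0.06 to 0.10. The 4 comparisons with untreated share the same 3 untreated libraries. The rise with the triple combination was lost without untreated replicate 3 (0.08, adjusted p = 0.077) or without replicate 1 (0.060) or 2 (0.056) of the triple combination. A fit on the compared groups alone lost this call (adjusted p = 0.089) and that for IL-33 (0.051). Rescaled by median ratios, the rises against untreated were larger and all passed in limma. They were 0.24 with IL-33 (adjusted p = 0.012), 0.32 with IL-33/17A (0.00074), 0.34 with IL-33/13 (0.00044) and 0.25 with the triple combination (0.0030).

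Stat6, the transcription factor gene downstream of the receptor (ENSMUSG00000002147, mm10 chromosome 10, 127642986 to 127660957, plus strand), went the opposite way and was highest in untreated cells. The untreated libraries had 142.9, 133.8 and 142.5 TPM and those with IL-33 130.3, 132.3 and 130.2. With IL-33/17A the values were 128.8, 114.8 and 123.9 TPM. Every library of each of these groups was below all libraries of the group before it. With IL-33/13 they were 109.9, 113.0 and 114.4 TPM and in the triple combination 113.5, 114.7 and 112.9. These 2 groups overlapped each other and lay below every library without IL-13, the closest being replicate 2 of IL-33/17A, 114.8 TPM against 114.7 TPM.

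IL-33 alone did not change Stat6 past the threshold, at -0.09 ± 0.04 (limma adjusted p = 0.17), with a 95% interval from -0.18 to -0.0031 before adjustment. Stat6 fell by 0.19 on the log2 scale with IL-33/17A (limma adjusted p = 0.0034), by 0.31 with IL-33/13 (6.9e-05) and by 0.29 with the triple combination (9.2e-05). It also fell when IL-13 was added to IL-33, with a change of -0.22 ± 0.04 (limma adjusted p = 0.0021), to 112.4 ± 2.31 TPM. IL-17A gave -0.10 on top of IL-33 (adjusted p = 0.16) and 0.02 on top of IL-33/13 (adjusted p = 0.85). The median of all tested genes was itself -0.12 for IL-33/13 against untreated and -0.08 for IL-13 added to IL-33. Rescaled by median ratios, Stat6 fell by 0.16 and by 0.13 in these comparisons and still passed (adjusted p = 0.0032 and 0.020). The call for IL-33/17A was lost there (-0.07, adjusted p = 0.17). With a term for the low mitochondrial set the fall for IL-13 added to IL-33 was -0.16 and did not pass (adjusted p = 0.092). The last bases of Stat6 overlap Nab2 on the other strand (mean 141 TPM), and the use of strand in counting is not given in the sources used here.

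**Figure D2:**
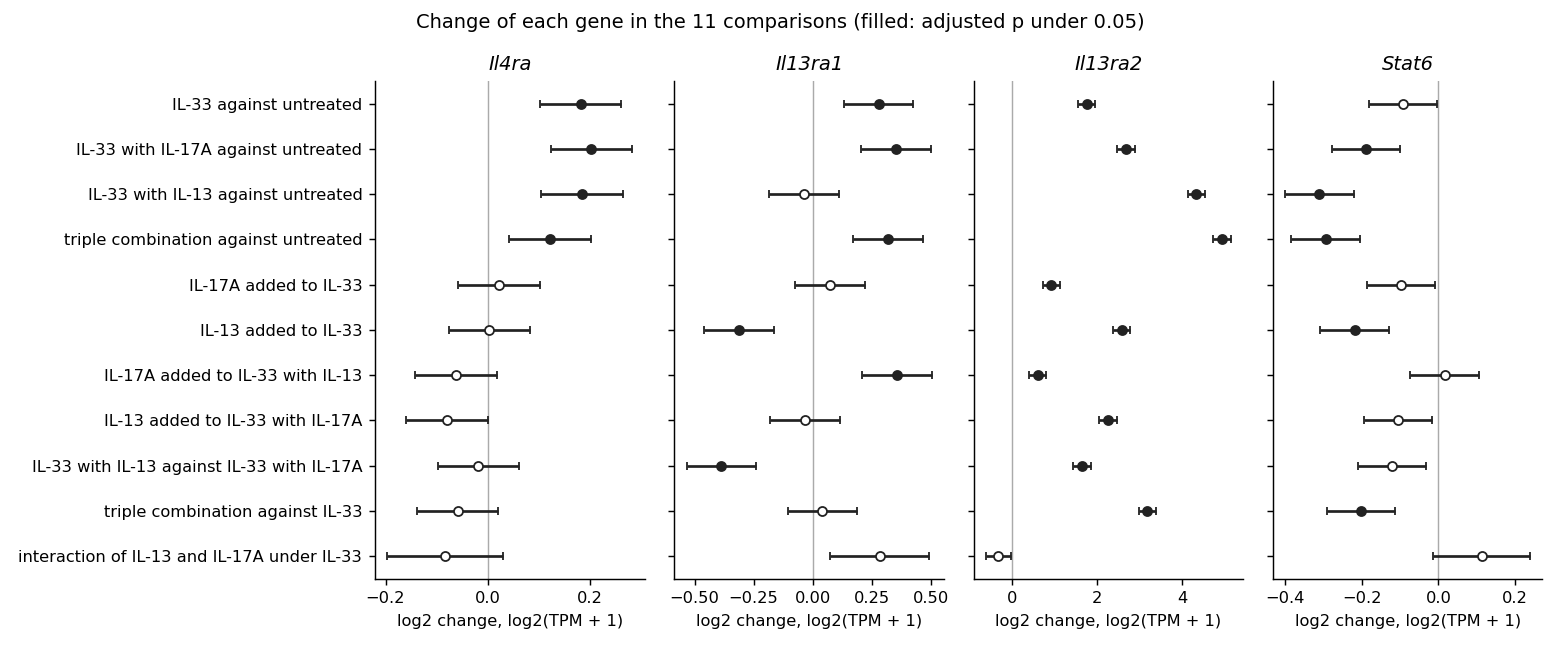
Change of each gene on log2(TPM + 1) in the 11 comparisons, with 95% intervals from limma; filled points have an adjusted p under 0.05, and each panel has its own horizontal scale. Il13ra2 is above 0 in all 10 comparisons of groups, Il4ra passes only against untreated cells, Il13ra1 passes in both directions, and Stat6 passes only downward.

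Counted by comparison, 3 of the 4 genes were called with IL-33 against untreated (Il4ra, Il13ra1 and Il13ra2, all higher), where 14.2% of all tested genes were called. All 4 were called with IL-33/17A against untreated, where 37.7% of genes were called, and with the triple combination, where 42.7% were. With IL-33/13 against untreated 3 of the 4 were called, where 49.6% of genes were. Il13ra2 is in each of these counts against untreated. It passed the filter only through the treated groups, so the filter itself favoured its rise there. For IL-13 added to IL-33 the count was 3 of 4 beside 32.4% of genes, and for IL-17A added to IL-33/13 it was 2 of 4 (Il13ra1 and Il13ra2) beside 7.45%. Only Il13ra2 was called for IL-17A added to IL-33 and for IL-13 added to IL-33/17A, where 9.76% and 15.8% of genes were called. For IL-33/13 against IL-33/17A 2 of 4 were called (Il13ra1 lower, Il13ra2 higher) beside 16.8% of genes, and for the triple combination against IL-33 it was 2 of 4 (Il13ra2 higher, Stat6 lower) beside 24.7%. None of the 4 passed for the interaction, where 0.338% of genes were called by limma. By limma voom with adjustment the interaction passed for Il13ra2 alone, and the share of all genes called by voom is not given here. Over the alternatives that were run, the number of all genes called for the interaction went from 2 to 3038.

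The balance of the 3 chains was set out per length of exon, as recovered reads scaled to the library total (RPM) divided by the kilobases of exon sequence (6.002 for Il4ra, 3.71 for Il13ra1, 2.28 for Il13ra2). This treats all reads as exonic, which the sources used here do not state. For Il4ra the recovered values were whole reads within 0.03 in only 3 of 15 libraries, against 15 of 15 for the other 3 genes, so its reads are rounded. On this scale Il4ra averaged 100.03 untreated and 118 to 125.0 in the treated groups, Il13ra1 17.1 to 23.9, and Il13ra2 0.257 untreated and 62.6 in the triple combination. Il4ra was above both IL-13-binding chains in every library.

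**Figure D3:**
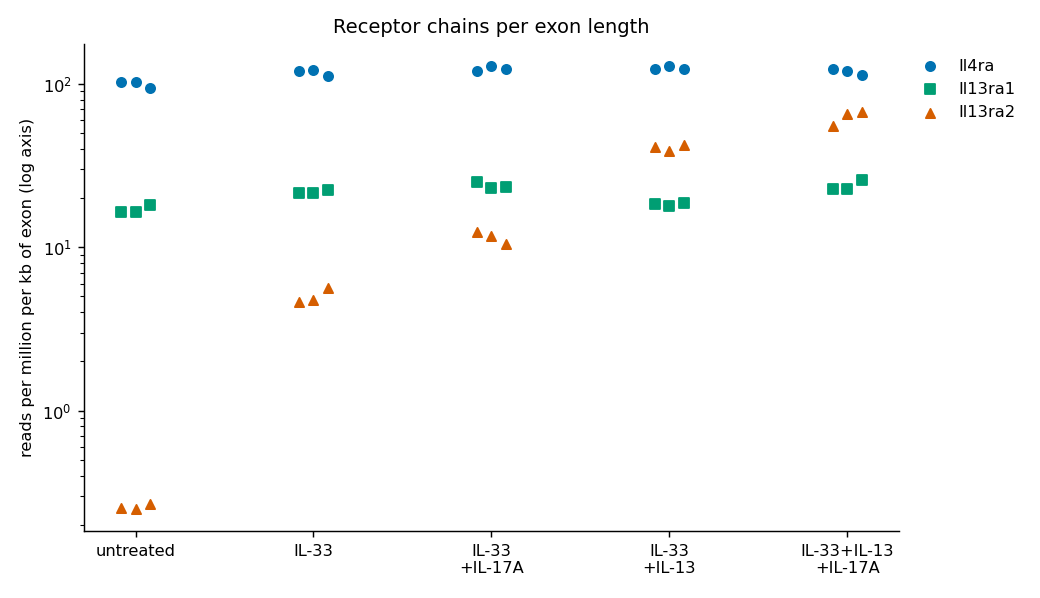
Recovered reads (RPM) per kilobase of exon (logarithmic vertical axis) for the 3 receptor chains in each of the 15 libraries, by culture condition. Il13ra2 lies below Il13ra1 in the 9 libraries without IL-13 and above it in the 6 libraries with IL-13, and Il4ra lies above both throughout.

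The decoy to signalling ratio, Il13ra2 over Il13ra1 per exon length, was 0.0151 ± 0.000378 in untreated cells, 0.230 ± 0.0202 with IL-33 and 0.483 ± 0.0295 with IL-33/17A (SD, n = 3). With IL-13 present the order of the 2 chains was the reverse. The ratio was 2.23 ± 0.0541 with IL-33/13, with 2.25, 2.17 and 2.27 in the 3 libraries, and 2.65 ± 0.222 in the triple combination, with 2.44, 2.88 and 2.63. The ratios of all 5 groups were apart from each other. Il4ra over Il13ra1 ranged only from 5.06 in the triple combination to 6.85 with IL-33/13. Il4ra over Il13ra2 went from 390 untreated to 1.92 in the triple combination.

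Genes with the most similar pattern were ranked by Pearson correlation over the 15 libraries, as a description without a test. The libraries share their 5 conditions, so any gene that follows the same order ranks high. For Il13ra2 they were Serpina3g (r = 0.996), Ccl11 (0.995), Slc7a2 (0.993), Hbegf (0.991) and C3 (0.990). Ccl11, the eosinophil chemokine eotaxin, averaged 7.64, 54.96, 112, 944 and 1161 TPM in the order untreated, IL-33, IL-33/17A, IL-33/13 and triple combination. Slc7a2, a transporter of cationic amino acids such as arginine, averaged 7.16, 23.1, 41.4, 78.0 and 114.5 TPM in that order. Hbegf, which encodes an EGF receptor ligand, went from 22.3 to 89.6 TPM, and the complement gene C3 from 27.8 to 166 TPM. Serpina3g, a serine protease inhibitor gene with near-identical copies whose reads may be split between them, went from 14.2 to 810 TPM.

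The other 3 genes had other companions. Nearest to Il13ra1 were the helicase gene Dhx40 (r = 0.971), the TGF-beta co-receptor gene Tgfbr3 (0.955), Ifitm6, Mgat4a and Cd93 (0.934). Dhx40 averaged 21.8, 27.5, 28.6, 20.0 and 29.0 TPM in the order above, with its lowest means in untreated cells and with IL-33/13. Nearest to Il4ra were the proteoglycan gene Sdc1 (0.941), the NF-kB subunit gene Relb (0.929), Apba3, Ak4 and Rac3 (0.924). Relb averaged 10.8 TPM untreated and 16.8 to 18.8 TPM in the treated groups. Nearest to Stat6 were the peroxidasin gene Pxdn (0.978), Smarcc2, Mgrn1, Pde4a and Lrig3 (0.973). Pxdn averaged 27.8 TPM untreated, 24.5 with IL-33 and 16.4 with IL-33/13.

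Around the receptor, 33 further genes of the IL-4 and IL-13 pathway could be tested. IL-33 raised 10 and lowered 3 of them against untreated cells, where 5.92% of all tested genes were called higher and 8.28% lower. IL-13 added to IL-33 raised 16 and lowered 5, in all 21 of 33 where 32.4% of all tested genes were called, with a median of 0.23 against -0.08 for all tested genes. Of the 16, Ccl24, Retnla and Chil3 reached 1 TPM in 3 libraries only through the groups with IL-13, so that the filter itself favoured their rise. Among the other 30 genes 13 rose and 5 fell, with a median of 0.14. IL-17A added to IL-33 raised 6 and lowered 5 (3.54% and 6.22%), and added to IL-33/13 it raised 1 (Ptpn2) and lowered 2 (Klf4 and Postn), beside 3.40% and 4.05% of all genes. With the term for the low mitochondrial set, 15 of the 21 calls for IL-13 added to IL-33 passed (14 higher, 1 lower). So did 8 of the 11 for IL-17A added to IL-33 (6 higher, 2 lower). Only genes called in the main fit were counted there, and the share of all genes called with that term is not given here. The shares above are those of the main fit. Without the libraries of that set, 3 of those 11 passed, all higher, with 1 library of IL-33/17A left. The 2 cytokine genes Il4 and Il13 were not among the 18078 genes of the expression files by symbol, so they could not be analysed. Tmem219, the gene of a membrane protein that works with IL-13Ralpha2 as a receptor for a chitinase-like protein, passed in none of the 11 comparisons and averaged 4.51 to 4.91 TPM over the groups.

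The gene of the common gamma chain rose with IL-33, and 1 kinase gene fell when IL-13 was added to IL-33. Of the 5 genes for this chain and the kinases, 1 was called in each comparison, where 14.2% and 32.4% of all tested genes were called. Il2rg, whose product pairs with IL-4Ralpha in the type I receptor for IL-4, averaged 61.6 TPM untreated and 82.4 TPM with IL-33 (0.41 ± 0.10, limma adjusted p = 0.016). It is a gene of blood cells in the main, and macrophage markers were abundant in all groups. Their summed level was 20127 to 20533 TPM untreated and 19543 to 19733 TPM with IL-33, and their part in the result was not tested. Jak1, the kinase bound to IL-4Ralpha, fell by 0.32 on the log2 scale when IL-13 was added to IL-33 (limma adjusted p = 0.00095), from 38.7 to 30.9 TPM. Jak2, Jak3 and Tyk2 did not pass in that comparison. Of the 5 adaptors and other STATs, 2 were called with IL-33, beside 14.2% of all tested genes. Irs1 fell by 0.42 (limma adjusted p = 0.040), from 2.78 to 1.84 TPM, and Irs2 rose by 0.22 (adjusted p = 0.048). Stat3 and Stat5b, like Stat6, were called lower when IL-13 was added to IL-33, beside 32.4% of all tested genes called in either direction. Stat3 went from 79.4 to 66.4 TPM and Stat5b from 8.91 to 7.25 TPM. With the term for the low mitochondrial set neither passed.

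Inhibitors of cytokine signalling changed in both directions. Of 9 such genes, 4 rose (Cish, Socs1, Socs3 and Ptpn2) and 2 fell (Bcl6 and Ptpn6) when IL-13 was added to IL-33, where 32.4% of all tested genes were called. With the term for the low mitochondrial set, which holds all IL-33/13 libraries, the 4 rises passed and both falls did not. The share of all genes called with that term is not given here. Cish, a SOCS family gene induced by STAT signalling, averaged 6.36 TPM untreated, 13.3 with IL-33, 29.3 with IL-33/17A, 99.2 with IL-33/13 and 100.5 in the triple combination. Its rise for IL-13 added to IL-33 was 2.81 ± 0.10 (limma adjusted p = 2.2e-09). Socs1, whose product inhibits JAK kinases and STAT6 activation, averaged 24.2, 38.3, 51.1, 105 and 92.4 TPM in the same order, and rose by 1.44 ± 0.17 for IL-13 added to IL-33 (limma adjusted p = 6.9e-05). Socs3 rose by 1.01 in that comparison and by 0.84 with IL-33 alone. Bcl6, a repressor that binds STAT6 sites, went from 44.1 TPM untreated to 24.9 with IL-33 (-0.80 ± 0.08, limma adjusted p = 1.5e-05) and 19.6 with IL-33/13. Ptpn2, a phosphatase gene, rose when either cytokine was added to IL-33 and reached 10.4 TPM in the triple combination from 4.79 TPM untreated.

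Among 13 tested genes known as STAT6 responders, 12 passed as higher and none as lower when IL-13 was added to IL-33. In that comparison 32.4% of all tested genes were called in either direction. The exception among the 13 was Ccl17. The listed responders Alox15 and Pparg did not reach the filter and were not tested. Alox15 averaged 0.0872 TPM with IL-33 and 0.0728 TPM with IL-33/13, and Pparg 0.217 and 0.216 TPM. Ccl24, Retnla and Chil3 are among the 12 but were tested only because of their level with IL-13. Among the 10 other tested genes 9 rose, with a median of 0.81 against -0.08 for all tested genes. With the term for the low mitochondrial set 10 of these 12 passed, and Ccl24 and Mgl2 did not. The share of all genes called with that term is not given here. Il1rl1, the IL-33 receptor gene, rose by 2.35 ± 0.08 (limma adjusted p = 1.9e-09) and Ccl11 by 4.09 ± 0.13 (adjusted p = 1.2e-09). IL-33 alone raised 5 of the 13 (Arg1, Ccl11, Egr2, Il1rl1 and Mrc1) and lowered Tgm2, where 5.92% of all tested genes were called higher and 8.28% lower. Retnla and Chil3, which macrophages express in response to IL-4 and IL-13, were near or at 0 without IL-13. Retnla had 0 reads in all 9 libraries without IL-13 and 1.81 and 1.46 TPM on average in the 2 groups with it, which are 12 and 9 reads in all. Chil3 averaged 1.67 and 1.47 TPM with IL-13. Postn, a matrix gene of fibroblasts, rose by 0.81 with IL-13 added to IL-33 and fell by 0.48 with IL-17A added to IL-33 (limma adjusted p = 8.3e-06 and 0.0011). Summed fibroblast markers were 13081 to 13978 TPM with IL-33 and 11204 to 11542 TPM with IL-33/13, and macrophage markers 19543 to 19733 and 18621 to 18799 TPM; their part in these results was not tested.

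**Figure D4:**
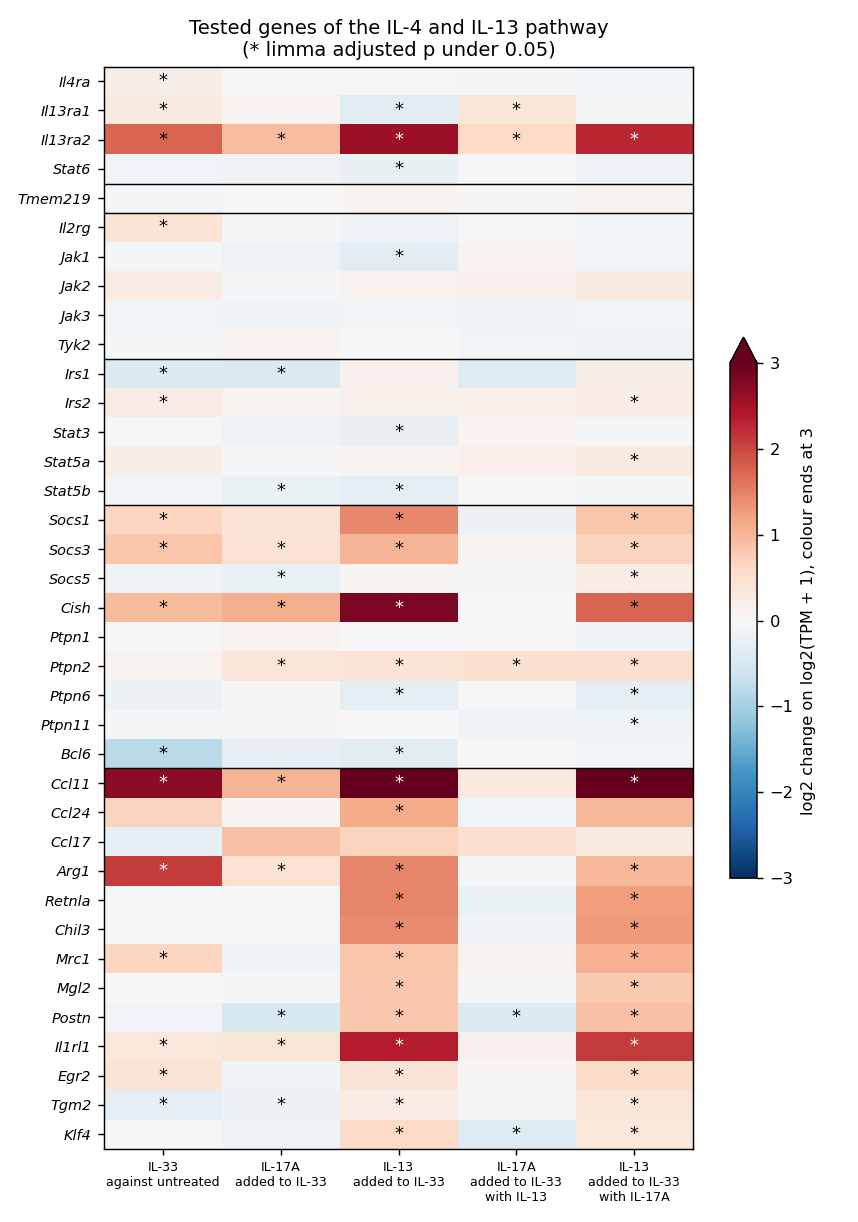
Log2 changes on log2(TPM + 1) of the 37 tested pathway genes (rows, the 4 receptor and Stat6 genes first, lists separated by lines) in 5 comparisons (columns); red is higher, blue lower, colours end at 3, and an asterisk marks a limma adjusted p under 0.05. The column for IL-13 added to IL-33 has 12 of 13 STAT6 response genes marked higher, of which Ccl24, Retnla and Chil3 passed the filter only through groups with IL-13, and the column for IL-17A added to IL-33/13 has 5 marked genes, Il13ra1, Il13ra2, Ptpn2, Postn and Klf4.

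The group means of the basophil protease gene Mcpt8 and of the summed epithelial markers had the same order as those of Il13ra2. Summed fibroblast markers had the reverse order, and the neutrophil and eosinophil markers had neither. Mcpt8 was the only 1 of 7 listed mast cell and basophil markers with values here, and 1 gene does not identify a cell type. It was 82.4 to 91.0 TPM untreated, 108 to 120 with IL-33, 113 to 132 with IL-33/17A, 133 to 145 with IL-33/13 and 133 to 156 in the triple combination. Summed neutrophil and eosinophil markers (4 of 8 analysed here, mainly S100a8) were 17.3 to 22.3 TPM untreated, 58.8 to 78.9 with IL-33, 105 to 114 with IL-33/17A, 71.1 to 78.2 with IL-33/13 and 114 to 151 in the triple combination, so that they were lower with IL-33/13 than with IL-33/17A. Summed epithelial markers averaged 0.291, 0.906, 0.963, 2.70 and 2.85 TPM in the order untreated, IL-33, IL-33/17A, IL-33/13 and triple combination. Of the 4 genes in that sum, 3 averaged under 1 TPM. Summed fibroblast markers averaged 15576, 13679, 12349, 11408 and 10032 TPM in the same order. Smooth muscle and pericyte markers went from 921 to 968 TPM untreated to 165 to 174 TPM in the triple combination. No marker analysed here was at 0 in all 15 libraries, and the part of any cell type in the result for Il13ra2 was not tested.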

How the data were processed

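Total RNA of 15 libraries was read on a NovaSeq sequencer, per the labels. The deposited values are TPM per gene and library. The submitters' processing notes name HISAT2, without a version, and the build mm10. How reads were counted (tool, strand, introns, reads matching several genes) is not given in the sources used here. TPM scales each library to a fixed total, so a rise of abundant transcripts lowers the others.

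Samples were grouped by their treatment label. limma 3.58.1 (R 4.3.3, trend and robust options) was fitted to log2(TPM + 1) with all 15 libraries in 1 fit, for the 13887 of 18078 genes with 3 or more libraries at 1 TPM or above. There were 10 comparisons of groups and 1 interaction, each with Benjamini-Hochberg adjustment over all tested genes, with calls made where that p was under 0.05. The design was written for either counts or TPM, and the TPM form was used. The 4 genes make 44 tests. The fit was tested on simulated data.

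Genes were named by rule: the 4 genes, the pathway lists (42 further genes, of which 35 were analysed here and 33 tested), and for each of the 4 the 5 tested genes with the highest Pearson correlation. Members and lists were chosen with earlier results of these data known. Read numbers were recovered as TPM times span over a constant per library (1 read on 1 kb was worth 0.730 to 1.13 TPM). Replicates were numbered in accession order and not paired. Library pairs within a group differed by 1.31 to 8.27 in chi-square per gene, so none was treated as a duplicate. Alternatives were other pseudocounts and filters, compared groups only, plain limma, median-ratio scaling, a term for the low mitochondrial set or libraries outside it only, each library left out, and limma voom on recovered reads, chosen after seeing the data. Symbols came from the files and promoter windows from RefSeq (GRCm38.p6), matched by symbol for 4 of 4 genes. Tables were joined in Python 3.11.15 (scipy 1.17.1, pandas 2.3.3, numpy 2.4.6).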

Additional observations from a re-analysis of the deposited data

Results flagged for a closer look

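For 2 of the 33 tested genes of the pathway the effect of IL-17A differed with the presence of IL-13 by a test of the difference itself. Of all tested genes, 0.338% were called by limma in that test. Cish rose by 1.08 (limma adjusted p = 1.8e-05) when IL-17A was added to IL-33 and changed by 0.02 (adjusted p = 0.94) when it was added to IL-33/13, an interaction of -1.07 ± 0.14 (SE, adjusted p = 0.0071). Arg1 rose by 0.42 (adjusted p = 0.00015) and changed by -0.04 (adjusted p = 0.64) in the same comparisons, an interaction of -0.46 ± 0.07 (limma adjusted p = 0.015). With a term for the low mitochondrial libraries the interactions were -0.83 (adjusted p = 0.47) for Cish and -0.40 (adjusted p = 0.54) for Arg1. The cause was not tested.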

How the results depend on the processing

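No paired analysis was possible because the labels carry no replicate numbers. Of 424 values of the 4 genes under alternatives other than leaving out a library, 401 kept direction and side of the threshold, and of 288 with 1 library left out 270 did; for Il13ra2 in the 10 pairs all 156 did. In a fit on the compared groups only, adjusted p rose past 0.05 for Il4ra with IL-33 (0.18) and the triple combination (0.12) and for Stat6 with IL-33/17A (-0.19), all against untreated. Median-ratio scaling raised the median of all genes by 0.11, 0.13 and 0.12 for IL-33/17A, IL-33/13 and the triple combination against untreated. It gave Stat6 -0.0677 for IL-33/17A against untreated, no longer passing. It reversed small uncalled values: Il13ra1 for IL-33/13 against untreated (0.10), Stat6 for IL-17A added to IL-33/13 (-0.0018), and Il4ra for IL-33/13 against IL-33/17A (0.0111) and for the triple combination against IL-33 (0.0161). With limma voom on recovered reads these were 0.10 for Il13ra1, 0.0093 and 0.0163 for Il4ra, Stat6 for IL-33/17A against untreated was -0.0822 and no longer passed, and the interaction of Il13ra2 passed (-0.57). In TPM that interaction was 8.73, of the opposite sign, as a difference of levels and not of ratios. A term for the low mitochondrial set ended 3 calls: Stat6 (-0.16) and Il13ra1 (-0.17) for IL-13 added to IL-33, and Il13ra1 (0.26) for IL-17A added to IL-33/13. It reversed uncalled values of Il13ra1 for IL-33/13 against untreated (0.11), Il4ra for IL-13 added to IL-33 (-0.0237) and Stat6 for IL-17A added to IL-33/13 (-0.0217). On the libraries outside the set, 3 calls against untreated were lost with fewer samples: Stat6 (-0.12) and Il4ra (0.20) for IL-33/17A, and Il4ra (0.11) for the triple combination. Comparisons with IL-33/13 could not be fitted there, since none of its libraries remain.

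With each library left out in turn, Il13ra1 for IL-33 against untreated ranged from 0.25 to 0.33, for IL-33/13 against untreated from -0.0631 to 0.016, for IL-13 added to IL-33/17A from -0.0981 to 0.0208, for the triple combination against IL-33 from -0.0258 to 0.0825, and its interaction from 0.22 to 0.33. Il4ra for IL-13 added to IL-33 ranged from -0.0162 to 0.0206 and for the triple combination against untreated from 0.0838 to 0.144. Stat6 ranged from -0.133 to -0.0515 for IL-17A added to IL-33, passing without replicate 1 of IL-33/17A. Without replicate 2 of that group it passed for IL-13 added to IL-33/17A (range -0.151 to -0.0687) and for IL-33/13 against IL-33/17A (range -0.167 to -0.085). For IL-17A added to IL-33/13 it ranged from -0.0001 to 0.0286.

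The number of all genes called moved more. Over the alternatives it was 316 to 3057 for IL-17A added to IL-33 (1355 as reported), 493 to 1961 for IL-17A added to IL-33/13 (1034), 788 to 2638 for IL-13 added to IL-33/17A (2199), 1420 to 4867 for IL-13 added to IL-33 (4506), 2139 to 6102 for IL-33/17A against untreated (5229), 3549 to 7451 for IL-33/13 against untreated (6887) and 1529 to 2937 for IL-33/13 against IL-33/17A (2339). For the interaction it was 2 with the set term and 3038 without replicate 1 of IL-33/17A (47 as reported). Of 2787 values of the other pathway genes 2585 stayed the same, 202 no longer passed and 0 reversed. The cause of these shifts was not tested. Depth limits Il13ra2 in untreated cells (20 reads) and Retnla (12 and 9 reads with IL-13).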
